A study of Mus musculus with 4 samples.

Results

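WNT pathway genes were followed in RNA sequenced from newborn mouse epidermis with and without catalytically active Polycomb repressive complex 1 (PRC1). The 54 genes were chosen by name as WNT ligands, receptors, inhibitors and effectors, and all 54 were found among the 24453 gene symbols counted. Of these, 46 had enough reads to be tested and 8 did not, against 14550 genes tested in all. Back skin was taken at postnatal day 0, and the gate kept interfollicular cells that were positive for EpCAM and Sca1 and had much α6-integrin, which favours progenitors. The 2 I53A libraries came from Ring1a-/- Ring1b-/I53A mice, which lack Ring1a and carry a Ring1b null allele over the I53A allele, whose product cannot ubiquitinate histone H2A. The 2 libraries labelled control (CTL) carry no genotype beyond that word, so alleles that both groups may share are not known here. The comparison does not separate the I53A allele from the loss of Ring1a or from the null Ring1b allele. Nothing in the labels says how many animals stand behind a library. The p-values set the difference between groups against the spread between the libraries within a group, 2 in each.

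WNT ligands are secreted lipid-modified proteins that bind Frizzled receptors with the co-receptors Lrp5 and Lrp6, which stabilises beta-catenin so that it can act with TCF/LEF factors on target genes. Secreted inhibitors capture ligands or block co-receptors, and R-spondins act through LGR receptors to shield Frizzled proteins from the ubiquitin ligases Znrf3 and Rnf43. In skin the pathway is known for starting hair follicles and for sustaining basal cells of the epidermis.

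Total counts were 15966412 and 21543385 in I53A replicates 1 and 2 and 17010432 and 15505018 in CTL replicates 1 and 2. Ring1, the gene of Ring1a, had 2.54 and 2.91 CPM (counts relative to the library's TMM-scaled total) in I53A epidermis and 24.2 and 33.3 CPM in CTL epidermis. Rnf2, the gene of Ring1b, had 58.9 and 59.1 CPM in I53A epidermis and 58.5 and 45.8 CPM in CTL epidermis, and counts of whole genes cannot tell the I53A allele from the normal one. Epcam, the sort marker, was present in every library, with 133 and 159 CPM in I53A and 107 and 85.9 CPM in CTL epidermis. The 8 sort and basal markers summed to 19358 to 22519 CPM in I53A and to 27496 to 31579 CPM in CTL epidermis, and none of them passed the test. Krt5 held most of that sum, with 14040 and 11505 CPM in I53A and 17517 and 21216 CPM in CTL epidermis. Ly6a, for Sca1, had 18.6 and 16.4 CPM in I53A and 17.1 and 22.7 CPM in CTL epidermis. Itga6, for α6-integrin, had 1006 and 784 CPM in I53A and 980 and 928 CPM in CTL epidermis. I53A replicate 1 had reads of Y-linked genes (1868 of Ddx3y) and 173 of Xist, while the other 3 libraries had at least 121977 Xist reads. All 54 members lie on autosomes, and the part of sex in their levels was not tested.

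Of the 6 WNT genes called, 5 encode secreted proteins and 1 encodes a TCF/LEF factor. Dkk3, Sfrp1, Sfrp2, Rspo1 and Tcf7l1 rose in I53A epidermis and Wnt4 fell, while 40 members did not pass the test (edgeR quasi-likelihood test, two-sided, Benjamini-Hochberg adjusted p under 0.05 over all 14550 genes). Members called in either direction were 6 of 46, and among all tested genes 6.71% were called, 5.68% higher and 1.04% lower. A gene nearly silent in CTL passes the low-count filter only through the I53A libraries, so the count was also taken over the 40 members that both CTL libraries alone would keep. Of those, 4 rose and 1 fell, where 5.18% and 1.12% of all such genes did so. The median log2 fold change (I53A over CTL) was 0.10 over the tested members and -0.01 over all tested genes. I53A and CTL libraries did not overlap for 19 members that were higher and 11 that were lower, and for 24.5% and 23.5% of all tested genes.

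**Figure D1:**
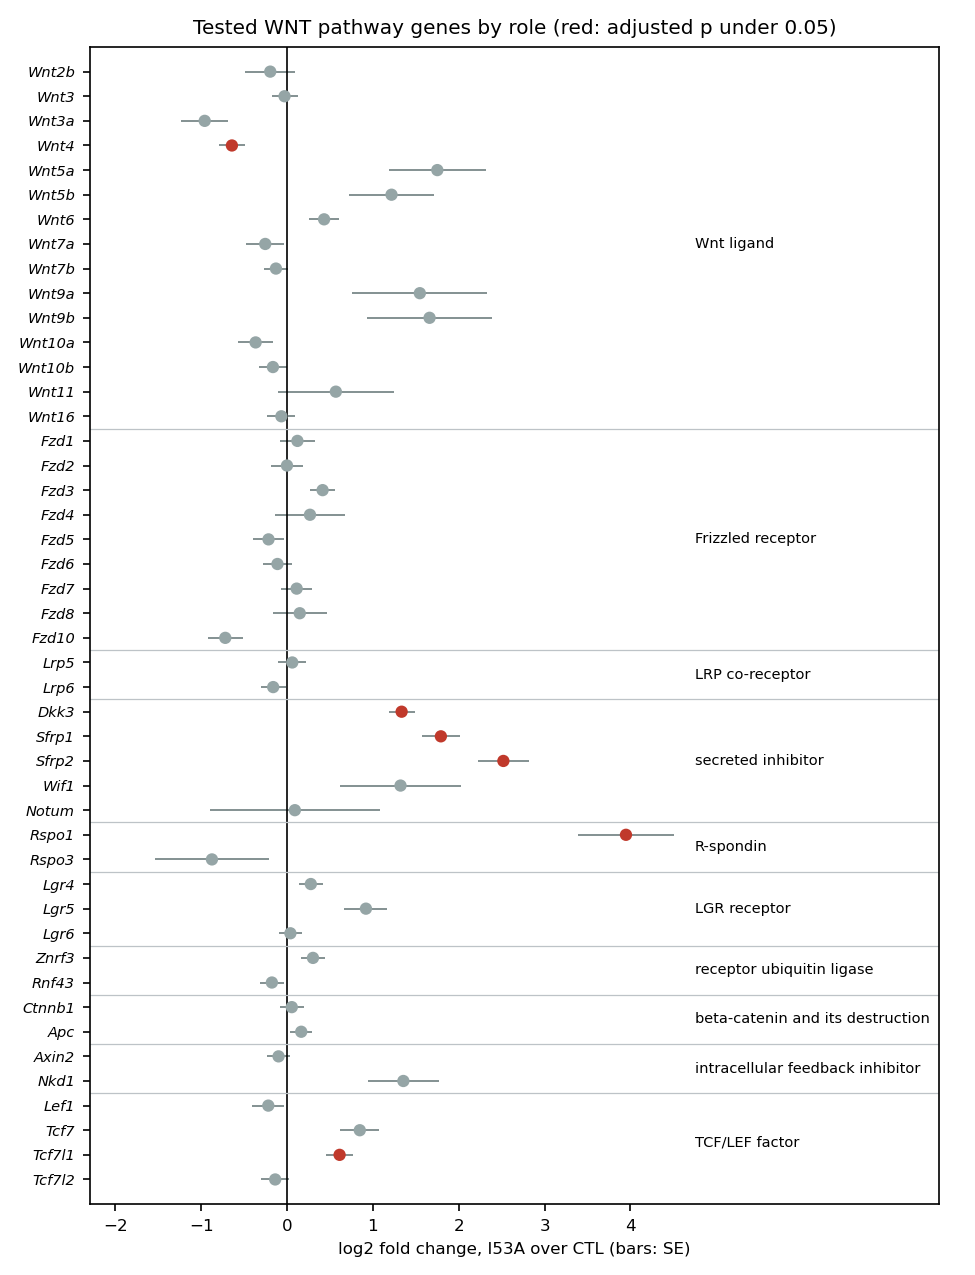
Log2 fold change, I53A over CTL (x axis), of the 46 tested WNT pathway genes, grouped by role from ligands at the top to TCF/LEF factors at the bottom, with 2 libraries a group. Points are fitted values, bars are standard errors, and red marks the 6 genes past the threshold, 3 of which are secreted inhibitors.

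Secreted inhibitors held 3 of the 5 members that rose. Dkk3, a divergent member of the Dickkopf family, had 147 and 130 CPM in I53A replicates 1 and 2 and 54.05 and 55.9 CPM in CTL replicates 1 and 2. Its mean was 139 ± 12.0 CPM in I53A and 55.0 ± 1.28 CPM in CTL epidermis (SD, n = 2 each), for which edgeR gave a log2 fold change of 1.34 with an SE of 0.15 and an adjusted p of 0.000653. Both I53A libraries lay far above both CTL libraries, and the gap between the groups was several times the spread within either pair.

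Sfrp1, which binds WNT ligands through a domain related to that of Frizzled, had 111 and 76.1 CPM in I53A and 23.7 and 30.2 CPM in CTL epidermis. The log2 fold change was 1.79 ± 0.22 (SE, adjusted p = 0.000995, edgeR). The I53A libraries differed more from each other than the CTL libraries did, but the groups did not overlap.

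Sfrp2, a relative of Sfrp1 with the same kind of domain, had 34.4 and 38.4 CPM in I53A and 4.23 and 8.61 CPM in CTL epidermis. This was a 5.67-fold higher mean with 2.52 ± 0.30 as its log2 fold change (SE, adjusted p = 0.000830, edgeR). Here the CTL libraries were the less even pair.

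The other secreted inhibitors among the members were scarce. Wif1, which binds WNT ligands, had 2.42 and 1.23 CPM in I53A and 0.536 and 0.861 CPM in CTL epidermis, and did not pass the test (adjusted p = 0.369, edgeR, from 38 and 28 reads in I53A and 9 and 13 in CTL libraries). Notum, an enzyme that removes the lipid of WNT ligands, had 1 and 38 reads in I53A and 26 and 4 reads in CTL epidermis, so the libraries of each group disagreed. Dkk1, Dkk2 and Sfrp4 were not tested, with at most 30, 10 and 11 reads in any library. Per kilobase of transcript (RPKM), the 8 secreted inhibitors among the members summed to 87.6 and 77.4 in I53A and 24.9 and 28.5 in CTL epidermis. Dkk3 supplied 50.01% and 50.1% of that sum in I53A and 64.5% and 58.4% in CTL libraries. The sum leaves out Sostdc1, a secreted antagonist that is not a member and went the other way. Sostdc1 had 55.1 and 55.2 RPKM in I53A and 128 and 127 RPKM in CTL epidermis, so the sum does not describe all secreted inhibitors.

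**Figure D2:**
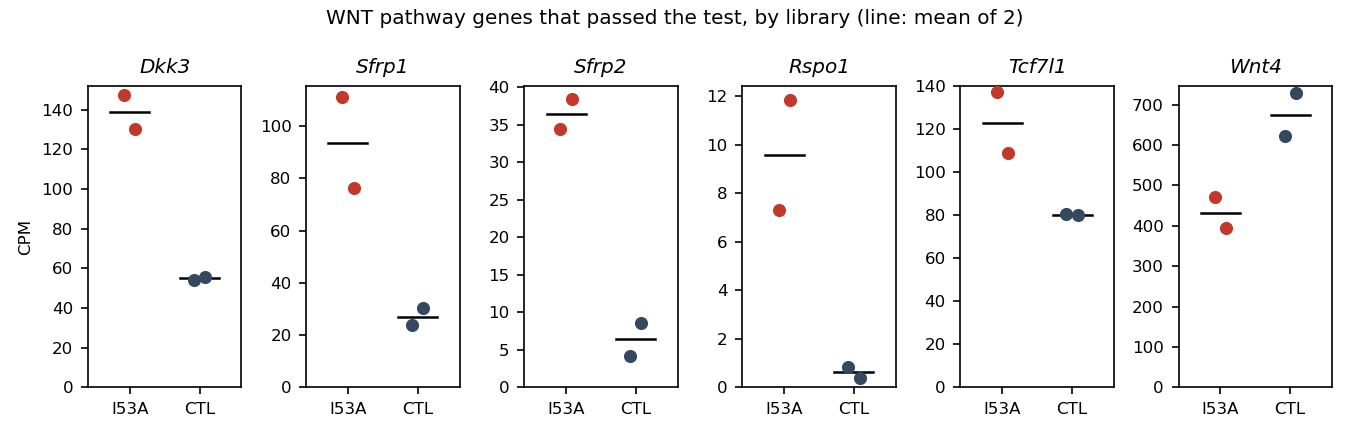
CPM (y axis, from 0, on a scale of its own for each gene) of the 6 WNT pathway genes past the threshold in the 2 I53A and 2 CTL libraries. Points are libraries and lines are means, and no I53A point overlaps the CTL points in any panel, with Wnt4 the only one of the 6 that is lower in I53A.

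R-spondins and their receptors differed from one another. Rspo1, an R-spondin, had 7.32 and 11.9 CPM in I53A and 0.833 and 0.398 CPM in CTL epidermis, from 115 and 269 reads against 14 and 6 reads. The mean was 15.6-fold higher in I53A, and its log2 fold change 3.95 ± 0.56 (SE, adjusted p = 0.00197, edgeR). CTL libraries alone would not have kept Rspo1 in the test. Rspo3 had 0.382 and 1.28 CPM in I53A and 1.67 and 1.66 CPM in CTL epidermis (log2 fold change -0.87 ± 0.66, SE, adjusted p = 0.568, edgeR). Rspo2 and Rspo4 had at most 3 and 9 reads in any library and were not tested. Rspo1 was thus the R-spondin of highest level in I53A epidermis, at 5.23 RPKM against 0.269 RPKM of Rspo3, and in CTL epidermis Rspo3 stood at 0.539 RPKM and Rspo1 at 0.336 RPKM, from few reads.

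Of the R-spondin receptors, Lgr4 and Lgr6 stood at 26.6 to 43.2 RPKM in I53A and 26.8 to 34.6 RPKM in CTL epidermis. Lgr4 had 219 and 194 CPM in I53A and 175 and 165 CPM in CTL epidermis (log2 fold change 0.28 ± 0.14, SE, adjusted p = 0.336, edgeR). Lgr6, a marker of stem cells in skin, had 190 and 178 CPM in I53A and 179 and 179 CPM in CTL epidermis. Lgr5, a marker of hair follicle stem cells, was lower in RPKM than either, with 18.2 and 24.02 CPM in I53A and 12.0 and 10.5 CPM in CTL epidermis. Its groups did not overlap, yet it missed the threshold (log2 fold change 0.92 ± 0.25, SE, adjusted p = 0.0592, edgeR). Lgr5 was called higher in 5 of 14 other settings, among them DESeq2 (adjusted p = 0.0301) and the replicate block (adjusted p = 0.0462, edgeR), and its adjusted p ranged from 0.0101 to 0.409 over the 14. Znrf3, the ubiquitin ligase that removes Frizzled proteins, was among the most abundant members, with 1012 and 896 CPM in I53A and 740 and 808 CPM in CTL epidermis (adjusted p = 0.292, edgeR). Rnf43, its relative, had 92.8 and 92.6 CPM in I53A and 101 and 109 CPM in CTL epidermis.

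Promoter sequence was read for members from RefSeq's table on GRCm38.p6, which held 36 of the 54 members and 4 of the 6 that passed the test. Dkk3 and Sfrp1 are among the members named without a sequence. CpG-rich promoters are the usual targets of Polycomb complexes, so CpG sites were counted in the 250 bases before each start. Below are the stretches before the starts of Sfrp2 (chr3:83766071-83766320, plus strand), Rspo1 (chr4:124986180-124986429, plus strand) and Wnt4 (chr4:137277385-137277488, plus strand, shorter because the GENCODE start of Wnt4 lies upstream of the RefSeq start). They are the called members of smallest p with an entry, and CpG sites are in capitals.
Sfrp2: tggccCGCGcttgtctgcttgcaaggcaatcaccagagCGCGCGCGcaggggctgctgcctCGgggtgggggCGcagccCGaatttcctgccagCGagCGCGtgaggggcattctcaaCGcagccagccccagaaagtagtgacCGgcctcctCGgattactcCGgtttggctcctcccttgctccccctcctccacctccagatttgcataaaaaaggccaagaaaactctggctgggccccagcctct
Rspo1: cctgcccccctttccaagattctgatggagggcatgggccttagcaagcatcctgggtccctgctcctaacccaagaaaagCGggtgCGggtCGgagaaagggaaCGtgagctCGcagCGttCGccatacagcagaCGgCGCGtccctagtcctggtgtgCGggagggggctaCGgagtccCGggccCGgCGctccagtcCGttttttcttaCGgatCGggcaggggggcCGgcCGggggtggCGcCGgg
Wnt4: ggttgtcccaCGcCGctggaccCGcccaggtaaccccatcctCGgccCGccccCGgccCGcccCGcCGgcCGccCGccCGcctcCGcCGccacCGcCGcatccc

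These stretches held 16, 22 and 16 CpG sites, the last in the shorter stretch. In the full 250 bases of the table Wnt4 held 44 sites and Tcf7l1 held 29, so that the 4 called members with an entry had a median of 25.5. The 36 members had a median of 23.5 CpG sites in such 250 bases, with a range of 6 to 48, while 11077 tested genes with an entry had a median of 15.0 and all 27025 promoters a median of 6.0. The tested genes that rose had a median of 17.0 sites over 602 promoters and those that fell 9.5 over 122. The word CTTTG followed by AA, AT, TA or TT, which TCF/LEF factors bind, was searched on both strands. It occurred in the promoters of 3 of 36 members (8.33%), namely Wnt11, Fzd7 and Dkk1, and in none of the 4 called members with an entry, against 14.9% of all promoters and 10.5% of those of tested genes. A match is a description of letters in this window.

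Wnt4 led the ligands in level in both I53A and CTL epidermis. Wnt4, known from basal epidermis, had 471 and 395 CPM in I53A and 621 and 729 CPM in CTL epidermis. Its mean was 433 ± 53.9 CPM in I53A and 675 ± 76.3 CPM in CTL epidermis (SD, n = 2 each), so it fell by 0.64 on the log2 scale (SE 0.15, adjusted p = 0.0306, edgeR). The groups did not overlap, and the gap between the nearest libraries was somewhat wider than the difference within either pair. Without CTL replicate 1 or without CTL replicate 2 the call was lost (adjusted p = 0.159 and 0.387, edgeR), with log2 fold changes of -0.75 and -0.52, in fits that called 2.04% and 2.24% of all genes.

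Wnt4 supplied 44.5% and 41.8% of the summed ligand RPKM in I53A libraries and 51.7% and 55.0% in CTL libraries. Wnt7b, the ligand next in level, had 115 and 101 CPM in I53A and 117 and 119 CPM in CTL epidermis (adjusted p = 0.726, edgeR). Wnt3 had 61.5 and 61.3 CPM in I53A and 62.9 and 62.4 CPM in CTL epidermis, with a log2 fold change of -0.03 and an SE of 0.15. Wnt6, Wnt10b, Wnt10a and Wnt16 each supplied 4.43% to 9.83% of the summed ligand RPKM in every library, and none of them passed the test.

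**Figure D3:**
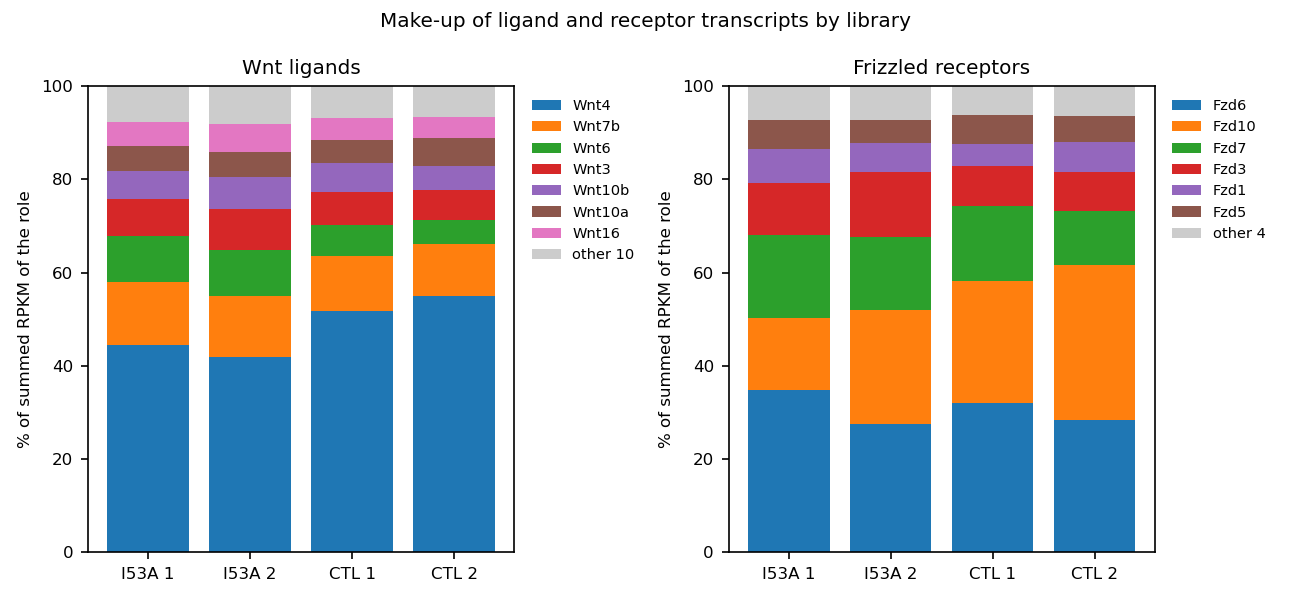
Share (y axis, percent) of the summed RPKM of the 17 Wnt ligands and of the 10 Frizzled receptors in each of the 2 I53A and 2 CTL libraries. Wnt4 takes 41.8% to 44.5% of ligand RPKM in I53A and 51.7% to 55.0% in CTL libraries, while Fzd6 and Fzd10 lead the receptors in 3 libraries and Fzd6 and Fzd7 in I53A replicate 1.

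Wnt5a and Wnt3a, ligands of low level, had fold changes of opposite sign. Wnt5a, a ligand of beta-catenin-independent signalling, had 3.75 and 10.2 CPM in I53A and 2.80 and 1.46 CPM in CTL epidermis (log2 fold change 1.75 ± 0.56, SE, adjusted p = 0.107, edgeR). Its I53A libraries differed from each other more than the lower of them differed from CTL. Wnt3a, a classical activator of beta-catenin, had 6.62 and 7.54 CPM in I53A and 14.2 and 13.5 CPM in CTL epidermis, without overlap of the groups, and missed the threshold (log2 fold change -0.96 ± 0.27, SE, adjusted p = 0.0686, edgeR). Of the 15 tested ligands 6 had positive and 9 had negative fold changes, with a median of -0.07.

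Several ligand genes lie in neighbouring pairs. Wnt6 and Wnt10a lie 6193 bases apart on chromosome 1 on the same strand, and their log2 fold changes were 0.43 and -0.37. Wnt3 and Wnt9b lie 24328 bases apart on chromosome 11 on opposite strands. Wnt9b had 0.451 and 0.946 RPKM in I53A and 0.0527 and 0.425 RPKM in CTL epidermis, where Wnt3 had 19.9 to 20.4 RPKM in every library. Wnt1, 11706 bases from Wnt10b on chromosome 15, had 0 and 10 reads in I53A and 2 and 0 reads in CTL epidermis, while Wnt10b had 42.2 and 40.9 CPM in I53A and 48.9 and 44.2 CPM in CTL epidermis.

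None of the 9 tested Frizzled receptors passed the edgeR test with all libraries. Of the 9, 2 had an unadjusted p under 0.05 (edgeR), as had 2721 of all 14550 tested genes. Fzd6, a receptor known from hair patterning in skin, had 215 and 163 CPM in I53A and 217 and 191 CPM in CTL epidermis. Fzd3 had 202 and 246 CPM in I53A and 170 and 166 CPM in CTL epidermis (log2 fold change 0.41 ± 0.15, SE, adjusted p = 0.146, edgeR). Fzd10 had 72.1 and 110 CPM in I53A and 133 and 167 CPM in CTL epidermis, with the groups apart (log2 fold change -0.72 ± 0.21, SE, adjusted p = 0.0709, edgeR). Fzd10 was called lower in 6 of 14 other settings, among them DESeq2 (adjusted p = 0.0176) and the replicate block (adjusted p = 0.00571, edgeR), and its adjusted p ranged from 7.72e-08 to 0.526 over the 14. Fzd10 held 15.5% and 24.6% of the summed Frizzled RPKM in I53A libraries and 26.2% and 33.2% in CTL libraries. The co-receptor Lrp6 had 299 and 244 CPM in I53A and 310 and 297 CPM in CTL epidermis, and Lrp5 had 168 and 132 CPM in I53A and 135 and 153 CPM in CTL epidermis.

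Inside the cell, neither beta-catenin, its destruction scaffold Apc nor the feedback inhibitors Axin2 and Nkd1 passed the test. Ctnnb1, which encodes beta-catenin, had 934 and 911 CPM in I53A and 957 and 817 CPM in CTL epidermis (log2 fold change 0.06 ± 0.14, SE, adjusted p = 0.901, edgeR). Apc, a scaffold of the complex that destroys beta-catenin, had 492 and 519 CPM in I53A and 445 and 456 CPM in CTL epidermis. Axin2, a feedback inhibitor and a widely used target of beta-catenin signalling, had 129 and 141 CPM in I53A and 146 and 143 CPM in CTL epidermis (log2 fold change -0.10 ± 0.14, SE, adjusted p = 0.792, edgeR). Nkd1, another feedback inhibitor, had 6.999 and 10.0 CPM in I53A and 4.46 and 2.19 CPM in CTL epidermis, and missed the threshold (log2 fold change 1.36 ± 0.41, SE, adjusted p = 0.0892, edgeR).

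Of the TCF/LEF factors 1 of 4 was called. Tcf7l1, known as a repressor in skin progenitors, had 137 and 109 CPM in I53A and 80.7 and 80.0 CPM in CTL epidermis. Its log2 fold change was 0.61 ± 0.16 (SE, adjusted p = 0.0490, edgeR), just inside the threshold. The call was lost without CTL replicate 1, without CTL replicate 2 and without I53A replicate 1 (log2 fold change 0.62, 0.61 and 0.44). It was also lost with limma-voom (adjusted p = 0.0651) and with edgeR's earlier quasi-likelihood fit (adjusted p = 0.0558). Once GC content and transcript length were offset the log2 fold change was 0.30 (adjusted p = 0.295, edgeR). With these offsets and the replicate block it was 0.29 (adjusted p = 0.242, edgeR). An exon of Gm15401 overlaps Tcf7l1 on the opposite strand, and Gm15401 had 5.09 and 3.79 CPM in I53A and 1.90 and 2.72 CPM in CTL epidermis. As no source used here gives the strand setting of the counting, reads of overlapping opposite genes cannot be told apart. The same limit holds for Sfrp2, which an exon of Gm26771 overlaps on the opposite strand.

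Lef1, the most abundant of these factors, had 398 and 568 CPM in I53A and 499 and 625 CPM in CTL epidermis, so that the groups overlapped (log2 fold change -0.22 ± 0.19, SE, adjusted p = 0.629, edgeR). With each library left out in turn, the log2 fold change of Lef1 ranged from -0.50 to 0.0223. Tcf7l2 had 258 and 203 CPM in I53A and 227 and 279 CPM in CTL epidermis, again with overlap. Tcf7 had 52.0 and 38.9 CPM in I53A and 21.1 and 29.4 CPM in CTL epidermis, and its adjusted p of 0.0539 (edgeR) lay just outside the threshold.

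The 8 members without enough reads were Wnt1, Wnt2, Fzd9, Dkk1, Dkk2, Sfrp4, Rspo2 and Rspo4. Each had at least 1 read in some library. Pooled over the group, Wnt2 had 15 reads in I53A and 3 in CTL epidermis, a ratio of 4.15 with a 95% exact binomial counting interval from 1.17 to 22.4, and all 15 came from I53A replicate 2. Fzd9 had 0 and 3 reads in I53A and none in CTL epidermis. A floor of 3 counts was 0.132 to 0.191 CPM in I53A and 0.179 to 0.199 CPM in CTL libraries, so levels under that rest on 1 or 2 reads or none and were not reliably measured at this depth.

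Other genes of the pathway came from a list of 72 that did not include the members. Of the 62 tested, 3 rose, 2 fell and 57 were not called, with a median log2 fold change of 0.05, where 5.68% of all tested genes rose and 1.04% fell. Ror2, a receptor for Wnt5a, had 10.2 and 8.55 CPM in I53A and 0.179 and 0.729 CPM in CTL epidermis (log2 fold change 4.38 ± 0.57, SE, adjusted p = 0.00124, edgeR), and CTL libraries alone would not have kept it in the test. The size of the Ror2 difference rested on the CTL libraries, with log2 fold changes of 3.67 without CTL replicate 1 and 5.66 without CTL replicate 2. Bmp4, a BMP ligand listed as a target of beta-catenin signalling, had 49.9 and 47.5 CPM in I53A and 8.93 and 9.61 CPM in CTL epidermis (log2 fold change 2.39 ± 0.20, SE, adjusted p = 0.000132, edgeR). Nkd2, a relative of Nkd1, had 10.6 and 15.95 CPM in I53A and 2.38 and 4.04 CPM in CTL epidermis (adjusted p = 0.00878, and 0.143 without CTL replicate 1, edgeR).

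Sostdc1, a secreted antagonist of BMP and WNT signals, was even within each group, with 98.2 and 98.3 CPM in I53A and 227 and 227 CPM in CTL epidermis. It fell by 1.21 on the log2 scale (SE 0.14, adjusted p = 0.000651, edgeR). Tnfrsf19, a receptor listed as a target of beta-catenin signalling, had 303 and 255 CPM in I53A and 422 and 410 CPM in CTL epidermis, so that it fell by 0.58 on the log2 scale (SE 0.14, adjusted p = 0.0371, edgeR). That call was lost without CTL replicate 1 and without CTL replicate 2 (adjusted p = 0.340 and 0.275, edgeR). Among secreted regulators, then, Dkk3, Sfrp1, Sfrp2 and Rspo1 rose while Sostdc1 fell. The targets Myc and Cd44 and the ligand carrier Wls did not pass the test. Ccnd1, another listed target, had 395 and 286 CPM in I53A and 187 and 253 CPM in CTL epidermis, without overlap of the groups. Ccnd1 missed the threshold (log2 fold change 0.63 ± 0.19, SE, adjusted p = 0.0902, edgeR).

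Several of the genes that rose are also transcribed in dermal fibroblasts, and markers of that cell type were higher in the same libraries. Among all tested genes 5.68% rose, 1.04% fell and 24.5% had both I53A libraries above both CTL libraries. All 16 fibroblast markers were tested, 4 rose (Col5a1, Dcn, Thy1 and Fbn1) and none fell, and in 12 the I53A libraries lay above both CTL libraries. Their summed level was 5067 and 4906 CPM in I53A and 3945 and 4271 CPM in CTL epidermis, and none of the 16 was at 0. The collagen gene Col1a1 had 666 and 529 CPM in I53A and 359 and 469 CPM in CTL epidermis, with 0.53 as its log2 fold change. The median over the list was 0.54, and the 4 markers that rose were at 0.60 (Dcn), 1.17 (Fbn1), 1.18 (Col5a1) and 1.51 (Thy1). Dkk3, Sfrp1, Sfrp2 and Rspo1 had 1.34 to 3.95. The gate was set for interfollicular cells, and fibroblast markers had reads in every library. Postn, the most abundant of the 16, had 1036 and 1461 CPM in I53A and 1371 and 1483 CPM in CTL epidermis. It was the only 1 of the 16 with a negative log2 fold change (-0.19). The part of fibroblasts in the rise of the secreted regulators was not tested, and in bulk samples a change in the number of cells of a type cannot be told apart from a change of RNA per cell. Of the 15 hair follicle markers 3 rose (Lhx2, Hoxc13 and Cux1) and 2 fell (Tchh and Krt71), and their summed level was 1508 and 1508 CPM in I53A and 1050 and 1179 CPM in CTL epidermis, whose part was likewise not tested. Of 4 tested Merkel cell markers only Piezo2 passed the test, as higher, while 2 had positive and 2 had negative log2 fold changes. Krt8, on the negative side, had 3 and 15 reads in I53A and 60 and 20 reads in CTL epidermis (adjusted p = 0.111, edgeR). No tested endothelial, melanocyte, immune, suprabasal or skeletal muscle marker passed the test.

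**Figure D4:**
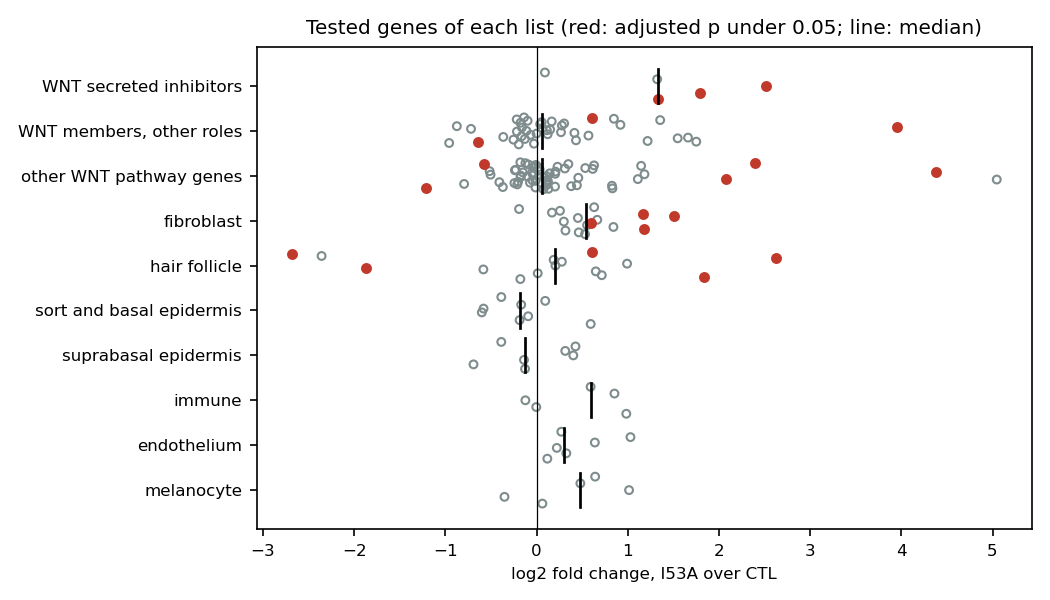
Log2 fold change, I53A over CTL (x axis), of every tested gene of the WNT lists and of the cell type marker lists (rows). Red points passed the test, open points did not, and black lines are medians. The median was 1.34 over the 5 tested secreted inhibitors among the members, which is the value of Dkk3, and 0.54 over the 16 fibroblast markers. CTL libraries alone would have kept 3 of those 5 inhibitors. Sostdc1, a secreted antagonist at -1.21, is in the row of other WNT pathway genes.

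Across 14 other settings Dkk3, Sfrp1, Sfrp2 and Rspo1 stayed past the threshold each time. Their log2 fold changes ranged from 1.18 to 1.42 for Dkk3, from 1.51 to 2.04 for Sfrp1, from 2.08 to 3.11 for Sfrp2 and from 3.53 to 4.58 for Rspo1, and the highest adjusted p of the 4 was 0.0363. The highest values came without CTL replicate 2 for Sfrp2 and without CTL replicate 1 for Rspo1. The offsets for GC content and transcript length turned the calls over all genes from 826 higher and 151 lower into 731 higher and 716 lower, and placed the median of all genes at -0.14. Measured from that median, Dkk3, Sfrp1, Sfrp2 and Rspo1 were at 1.32, 1.74, 2.56 and 3.84, Tcf7l1 at 0.44 and Wnt4 at -0.78. With these offsets 4 members were higher and 4 were lower, since Tcf7l1 was lost and Fzd10, Wnt10a and Wnt3a were called lower beside Wnt4.

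**Figure D5:**
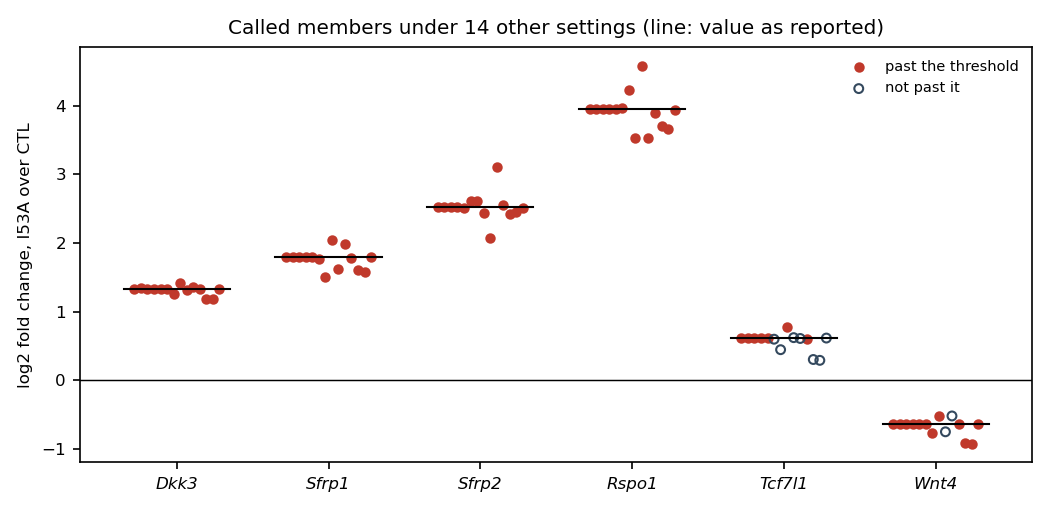
Log2 fold change, I53A over CTL (y axis), of the 6 called members under 14 other settings (points, 1 a setting, filled red where past the threshold and open where not). Black lines are the values as reported, and open points occur for Tcf7l1 (7 of 14) and Wnt4 (2 of 14) only.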

How the data were processed

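Per the labels' protocols, total RNA of sorted cells was amplified (Ovation RNA-seq System V2) and sequenced as single reads. HTSeq 0.6.1, TopHat2 2.0.13, DESeq2 1.6.3, Cufflinks 2.2.1 and mm10 stand in the submitters' processing notes, with no role or order. Annotation and strand setting: not given in the sources used here. For 2 I53A and 2 CTL libraries the authors deposited unnormalized counts of reads for each gene symbol.

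Genes were filtered with filterByExpr (minimum count 10, minimum total 15), scaled by TMM and tested with edgeR 4.0.16 in R 4.3.3 by its quasi-likelihood test (the newer fit of edgeR, without a block), two-sided, fitted on all 14550 genes with Benjamini-Hochberg adjustment. CPM are counts over TMM-scaled totals. RPKM divides CPM by the longest GENCODE M21 transcript in kilobases (97.3% of symbols matched), a length that may not be the one expressed. Intervals and floors cover counting error only, as reads carry no molecular identifiers. Replicates differed by more than sampling noise (chi-square per degree of freedom 41.8 for I53A and 13.1 for CTL), so each library counted as 1 sample. Tested on simulated data with known changes, the fit missed most small changes, and the share of false calls lay well above the nominal threshold, so calls close to it are less secure.

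The members, the lists and the rule for named genes were chosen with earlier results of these data known. Named are the targeted genes, every called member or listed pathway gene and the 3 members of highest mean CPM in each role, and other named genes were chosen after their values were seen. In the annotation 12 members, Sfrp2 and Tcf7l1 among them, share exonic bases with a gene on the opposite strand. Other settings were RLE or upper-quartile scaling, limma-voom (limma 3.58.1), DESeq2 1.42.0, other low-count filters, each library left out, a replicate block, loess offsets (span 0.5) for GC content and transcript length with and without that block, and, added after seeing the data, edgeR's earlier quasi-likelihood fit. Of these quasi-likelihood fits the newer was made the reported one after both had been run, to keep to earlier processing of these data, and the earlier one does not call Tcf7l1.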

Additional observations from a re-analysis of the deposited data

How the results depend on the processing

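The members called higher numbered 5, and 8 with DESeq2, 8 with the GC content and length offsets together with the replicate block, and 4 to 9 with each library left out in turn. The members called lower numbered 1, and 2 without a low-count filter, 3 with DESeq2, 2 with the replicate block, 4 with the offsets, 8 with the offsets and the block, and 0 to 3 with each library left out in turn. Other pathway genes called higher numbered 3, and 5 with the offsets and the block and 2 to 5 with each library left out, while those called lower numbered 2, and 9 with the offsets, 12 with the offsets and the block and 1 to 4 with each library left out. Without CTL replicate 1 or 2 the test called 2.04% or 2.24% of all genes, against 6.71% with all libraries. Without CTL replicate 1 or 2 Tcf7l1 and Wnt4 were lost. Among members not called with all libraries, DESeq2 called Fzd10, Lgr5, Tcf7, Wnt3a and Wnt5a, and the replicate block called Fzd10, Lgr5 and Tcf7. The cause was not tested.

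Of 420 values of single genes under these settings, 374 kept their direction and their side of the threshold. The 16 that turned in sign belonged to genes that were not called with all libraries and never passed the test with that sign. With the offsets, alone and with the block, Lrp5 was at -0.39 and -0.39, Lgr6 at -0.28 and -0.29, Ctnnb1 at -0.0983 and -0.0945 and Apc at -0.13 and -0.13. With each library left out in turn, the log2 fold change ranged from -0.32 to 0.0756 for Fzd6, from -0.11 to 0.22 for Lrp5, from -0.0045 to 0.0884 for Lgr6, from -0.0543 to 0.17 for Ctnnb1, from -0.50 to 0.0223 for Lef1 and from -0.31 to 0.0264 for Tcf7l2.

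The labels number the replicates 1 and 2 in both groups, but same-numbered libraries hardly deviated together (correlation 0.04 across genes), so the numbers were not taken as pairs. With the replicate block 7 members were higher and 2 lower. EdgeR's earlier quasi-likelihood fit, added after seeing the data, called 4 members higher and 1 lower, without Tcf7l1 (adjusted p = 0.0558). With 2 libraries a group small changes may be missed, and members with few reads could not be compared.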

Other observations

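Some WNT inhibitors and targets of low level varied between libraries of a group and not by group, and these genes were chosen after their values were seen. Notum had 0.0636 and 1.67 CPM in I53A and 1.55 and 0.265 CPM in CTL replicates 1 and 2, and Sp5, a target of beta-catenin signalling, had 0 and 30 reads in I53A and 11 and 0 reads in CTL epidermis. Dkk1, which blocks Lrp5 and Lrp6, had 2 and 30 reads in I53A and 5 and 1 reads in CTL epidermis. I53A replicate 2 held most of the reads of each of these 3 genes.

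Dkk4, an inhibitor known from hair placodes, had 1 and 1 reads in I53A and 10 and 33 reads in CTL epidermis. It was not tested, and its pooled ratio of I53A to CTL was 0.0386, with a 95% exact binomial counting interval from 0.00453 to 0.148 that does not cover the spread between animals. Dact2, an inhibitor that binds dishevelled proteins, had 11 and 38 reads in I53A and 1 and 0 reads in CTL epidermis. Its pooled ratio was 40.7, with an interval from 6.97 to 1639, and rested on 1 CTL read. Dact2 missed the threshold (adjusted p = 0.0675, edgeR), and CTL libraries alone would not have kept it in the test.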
